A study of Mus musculus with 24 samples.

Results

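The mRNA of 10 circadian clock genes was followed in mice with peritonitis that received β-nicotinamide mononucleotide (β-NMN, a precursor of NAD+) or saline vehicle. The genes, Arntl, Clock, Per2, Per3, Cry1, Cry2, Nr1d1, Nr1d2, Dbp and Tef, were picked by symbol from the 54658 symbols of the deposited read count tables. All 10 passed the filter on low counts in each of the 3 tissues. RNA-seq libraries came from male C57BL/6 mice aged 7 to 12 weeks. β-NMN was injected at 185 mg/kg per day from the induction of peritonitis onward, and the last injection preceded euthanasia by 24 h. By the study's methods the TGC mice were given an injection on each of 3 days, whereas the organs of the CLP mice were harvested 24 h after surgery and thus after a single injection, so dosing and model cannot be told apart between peritoneal cells and organs. In the sterile peritonitis model, induced with thioglycollate medium (TGC), peritoneal lavage cells of 6 vehicle and 6 β-NMN mice were plated and stimulated with E. coli for 6 h before RNA was taken. In the sepsis model, made by cecal ligation and puncture (CLP), hearts and lungs were taken from the same 3 vehicle and 3 β-NMN mice. Every mouse had peritonitis and every peritoneal culture received bacteria, so no group shows the clock of an untreated mouse. The mice lived under a light/dark cycle, but none of the sources used here gives the time of day at which tissue was taken.

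The mammalian clock is a transcriptional feedback loop. ARNTL (also called BMAL1) and CLOCK bind E-box elements as a pair and switch on the Per and Cry genes, whose proteins later block that pair. In a connected loop the nuclear receptors REV-ERBα (Nr1d1) and REV-ERBβ (Nr1d2) repress Arntl through ROR elements. DBP and TEF are bZIP factors that pass the rhythm on to output genes through D-boxes. In a running clock Arntl and Dbp mRNA peak at opposite times of day. Macrophages, heart and lung each hold such a clock, and in macrophages REV-ERB is known to repress inflammatory genes.

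To show where these loops could touch the genes themselves, the RefSeq promoter windows of GRCm38.p6 (250 bases before to 50 bases after a start site) were searched on both strands for the E-box CACGTG, the D-box TTANGTAA and the ROR element. The table held 13 windows for 9 of the 10 genes, all but Per2. The E-box was found in Cry1 and Tef, the D-box in Per3 and the ROR element in Arntl, and no 2 of these motifs overlapped. Only exact matches within the windows were sought, so a gene without a match may hold the element elsewhere or in other letters. Among 32851 promoter windows of the same length, 7.15% held the E-box, 2.32% the D-box and 0.606% the ROR element. The windows printed are chr10:85185005-85185304 (minus strand) for Cry1, chr15:81802423-81802722 (plus strand) for Tef, chr4:151044616-151044915 (minus strand) for Per3 and chr7:113207261-113207560 (plus strand) for Arntl. They are printed because each holds the element of 1 loop, 5′ to 3′ with the matched letters in capitals: the E-box starts at position -60 in Cry1 and -127 in Tef, the 2 D-boxes of Per3 at -205 and -158, and the ROR element of Arntl at 27, counted from the start site along the gene's strand. A window at another Tef start site, chr15:81811164-81811463 (plus strand), held an E-box at -138 and is not printed.
Cry1: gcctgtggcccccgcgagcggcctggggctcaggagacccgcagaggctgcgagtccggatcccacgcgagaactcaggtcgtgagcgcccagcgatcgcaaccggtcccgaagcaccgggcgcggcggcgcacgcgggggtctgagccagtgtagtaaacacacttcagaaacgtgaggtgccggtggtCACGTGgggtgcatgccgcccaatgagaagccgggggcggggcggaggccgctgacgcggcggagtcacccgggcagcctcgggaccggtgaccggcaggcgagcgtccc
Tef: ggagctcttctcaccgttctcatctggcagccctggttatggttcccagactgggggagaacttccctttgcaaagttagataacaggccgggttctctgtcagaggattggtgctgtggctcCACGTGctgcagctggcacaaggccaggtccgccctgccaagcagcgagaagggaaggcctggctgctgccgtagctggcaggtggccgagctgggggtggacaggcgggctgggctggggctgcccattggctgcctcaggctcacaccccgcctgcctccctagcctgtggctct
Per3: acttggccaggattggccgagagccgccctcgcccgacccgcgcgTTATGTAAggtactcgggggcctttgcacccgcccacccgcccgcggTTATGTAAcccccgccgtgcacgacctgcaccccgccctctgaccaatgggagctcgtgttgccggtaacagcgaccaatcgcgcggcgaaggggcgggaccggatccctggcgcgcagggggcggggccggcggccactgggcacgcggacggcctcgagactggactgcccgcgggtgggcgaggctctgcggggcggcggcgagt
Arntl: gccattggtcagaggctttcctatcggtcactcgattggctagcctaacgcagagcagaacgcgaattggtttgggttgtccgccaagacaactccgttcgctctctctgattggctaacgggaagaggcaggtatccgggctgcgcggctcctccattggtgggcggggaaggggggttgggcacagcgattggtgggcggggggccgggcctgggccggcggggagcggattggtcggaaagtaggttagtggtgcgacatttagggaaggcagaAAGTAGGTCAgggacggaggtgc

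Libraries held 31126823 to 112456050 counted reads in peritoneal cells, 27319513 to 68523239 in heart and 8915366 to 28356786 in lung. Levels are given as CPM (read counts brought to a common library size with TMM scaling) within a tissue, and as RPKM (CPM per kilobase of exon) where genes are compared with each other. The organs of a single CLP mouse stood far from those of the others. In the heart of vehicle mouse 2 the summed atrial markers (Myl7, Myl4, Sln, Nppa) reached 9639 CPM against at most 1170 in the other hearts, and the ventricular markers 28698 CPM against 46385 to 53752. Its lung, the library with the fewest reads, held 1335 CPM of the 6 macrophage markers against 3959 to 5459 in the other lungs, and 682 CPM of the endothelial markers against at least 1311. Mitochondrial reads were 12.9% in its heart (18.17% to 22.65% in the other hearts) and 0.407% in its lung (0.547% to 0.757%). The TMM factors were 1.23 in its heart (0.942 to 0.984) and 0.778 in its lung (0.987 to 1.09). Results that rest on this mouse are therefore given with and without it. In peritoneal cells the library of β-NMN mouse 6 stood apart within its group: the mean chi-square per gene was 98.2 to 162 against the other 5 and 22.4 to 77.1 among these. Vehicle libraries differed by 40.2 to 306. The TMM factor of the library of β-NMN mouse 6 was 0.888 (1.00 to 1.05 in the other 5) and its mitochondrial share 0.599% (0.752% to 0.886%). Vehicle libraries had a mitochondrial share of 0.504% to 0.653%, below that of the other 5 β-NMN libraries. The part of this difference in the clock gene results was not tested. In all 3 tissues the markers of the labelled tissue were high: macrophage markers in peritoneal cells (5396 to 11753 CPM), ventricular cardiomyocyte markers in heart and alveolar and airway markers in lung (58154 to 103248 CPM).

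In peritoneal cells 4 of the 6 repressors of the loop, but not Per3 and Nr1d2, were lower with β-NMN. Cry1, Nr1d1, Cry2 and Per2 were lower in every β-NMN mouse than in every vehicle mouse, and Arntl and Tef were lower on average. Of the 10 clock genes, 6 fell and none rose at an adjusted p below 0.05 (edgeR quasi-likelihood test, Benjamini-Hochberg), while 27.9% of the 14985 genes tested fell, 23.7% rose and 51.6% changed in either direction. The groups did not overlap, with β-NMN lower, for 4 of the 10, and for 14% of all genes tested (26.6% in either direction). Without β-NMN mouse 6 there were 7 calls, the same 6 and Clock. The median log2 fold change was -0.91 over the clock genes and -0.02 over all genes tested.

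Cry1 (chr10:85131700-85185064, minus strand), the cryptochrome with an E-box in the promoter printed above, had 33.7 CPM in the lowest vehicle mouse, 38.1 at the median and 61.7 in the highest. In β-NMN mice it had 7.14, 7.79 and 10.3 CPM. The highest β-NMN mouse was thus well under the lowest vehicle mouse. The level was 5.12-fold lower with β-NMN, a log2 fold change of -2.36 ± 0.15 (SE; adjusted p = 3.21e-08; exact two-sided permutation p = 0.00216, the smallest that 6 against 6 can give). Cry2 (chr2:92403646-92434043, minus strand), the other cryptochrome, had 2.83 to 6.18 CPM in vehicle mice (median 4.25) and 1.64 to 2.21 CPM in β-NMN mice (median 1.79). Here too the ranges were apart, with a log2 fold change of -1.26 ± 0.18 (adjusted p = 4.68e-05, edgeR).

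The Period genes, whose proteins pair with the cryptochromes, did not move alike. Per2 (chr1:91415982-91459324, minus strand) was low, at 1.47 to 2.08 CPM in vehicle mice (median 1.71) and 0.419 to 1.23 CPM in β-NMN mice (median 0.680). It fell by 1.23 ± 0.25 on the log2 scale, with no overlap (adjusted p = 8.82e-04, edgeR). Per3 (chr4:151003652-151044665, minus strand) had 0.813 to 2.06 CPM in vehicle mice and 1.14 to 2.28 CPM in β-NMN mice, ranges that overlapped, with vehicle mice 5 and 6 (0.975 and 0.813 CPM) below every β-NMN mouse and β-NMN mouse 4 above every vehicle mouse. Its log2 fold change of 0.28 had an interval of -0.22 to 0.79 and did not pass the test (adjusted p = 0.342, edgeR). It became 0.17 without vehicle mouse 6 and 0.50 without vehicle mouse 4, and limma-voom with quality weights called it (0.50, adjusted p = 0.0467).

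The REV-ERB pair differed in the same way. Nr1d1 (chr11:98767932-98775333, minus strand) had 27.6 to 67.4 CPM in vehicle mice (median 38.4) and 8.20 to 15.4 CPM in β-NMN mice (median 12.3). It was 3.45-fold lower, with a log2 fold change of -1.78 ± 0.22 and no overlap (adjusted p = 1.03e-05, edgeR). Nr1d2 (chr14:18204054-18239127, minus strand) had 44.4 to 70.1 CPM in vehicle mice and 43.4 to 89.6 CPM in β-NMN mice. The β-NMN range enclosed the vehicle range, and the log2 fold change was 0.11, with an interval of -0.25 to 0.48 (adjusted p = 0.609, edgeR), and it was -0.012 without β-NMN mouse 6, the highest library.

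Of the activators, Arntl fell and Clock did not pass the test. Arntl (chr7:113207465-113314126, plus strand), the gene with the ROR element printed above, had 3.65 to 8.50 CPM in vehicle mice (median 5.64) and 2.30 to 4.42 CPM in β-NMN mice (median 2.66). The ranges overlapped at their edge, and Arntl fell by 0.97 ± 0.20 on the log2 scale (adjusted p = 9.73e-04, edgeR). Clock (chr5:76209868-76304792, minus strand) had 27.9 to 37.6 CPM in vehicle mice and 25.1 to 34.5 CPM in β-NMN mice. Its log2 fold change of -0.20 did not pass the test (interval -0.42 to 0.021, adjusted p = 0.120, edgeR). It did pass without β-NMN mouse 6, the highest of its group (log2 fold change -0.24, adjusted p = 0.0409, edgeR), and with limma-voom (-0.27, adjusted p = 0.0114), while without vehicle mouse 4 it was -0.12 (adjusted p = 0.364, edgeR).

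Of the D-box factors, Tef (chr15:81802421-81826863, plus strand) had 2.80 to 7.75 CPM in vehicle mice (median 3.74) and 1.94 to 3.27 CPM in β-NMN mice (median 2.77). Vehicle mice 3 and 4, at 7.65 and 7.75 CPM, lay far above the other 4, which had at most 3.75 CPM. Tef fell by 0.85 ± 0.26 on the log2 scale (adjusted p = 0.0129, edgeR). Dbp (chr7:45705088-45710203, plus strand) was close to the limit of detection, with 10 to 65 reads a library, 0.206 to 0.995 CPM in vehicle mice and 0.246 to 0.681 CPM in β-NMN mice. Its log2 fold change of -0.07 had an interval of -0.82 to 0.68 (adjusted p = 0.883, edgeR).

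**Figure D1:**
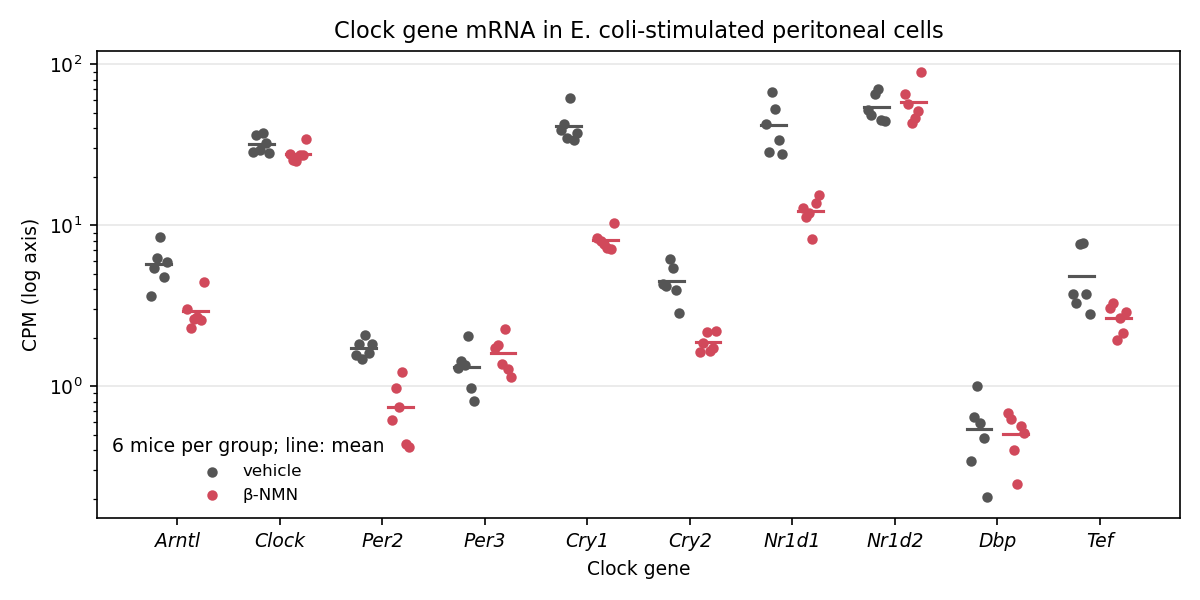
CPM of the 10 clock genes in E. coli-stimulated peritoneal cells, on a log axis, with 1 point for each of the 6 vehicle (grey) and 6 β-NMN (red) mice and a line at the group mean. The points of the groups are apart for Cry1 (33.7 to 61.7 against 7.14 to 10.3 CPM), Nr1d1, Cry2 and Per2, and overlap for the other 6 genes.

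Markers of other cell types differed between the same groups. The 6 macrophage markers summed to 5396 to 8180 CPM in vehicle and 10086 to 11753 CPM in β-NMN mice, and 3 of the 6 rose (Cd68, Lyz2 and Mertk). Of the 6 neutrophil markers 5 fell and Retnlg rose, with sums of 477 to 989 and 327 to 456 CPM, and S100a8 fell by 5.00 on the log2 scale. All 4 T cell markers fell, from sums of 2.62 to 8.69 CPM to 0.797 to 2.19 CPM, and all 4 fibroblast markers fell, from 89.6 to 956 CPM to 19.8 to 85.7 CPM. Of the B cell markers 2 of 4 fell, and their sums overlapped (30.6 to 149 and 20.6 to 81.6 CPM), as did those of the endothelial markers (63.2 to 143 and 65.0 to 116 CPM, 2 lower of 3 tested). Of the 3 mesothelial markers 2 fell, with sums of at most 7.72 CPM, while none of the 3 eosinophil and mast cell markers tested passed and adipocyte markers were near 0 (at most 0.724 CPM). No marker of these lists was at 0 in every library, and their part in the clock gene results was not tested. In such bulk samples fewer cells of a type and less RNA per cell cannot be told apart.

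Other clock genes were called in both directions in peritoneal cells, at shares to be read beside the 27.9% lower and 23.7% higher among all genes tested. Of 21 further clock regulators 18 passed the filter on low counts (Arntl2, Rorb and Fbxl21 did not), and 8 of these fell, 3 rose and 7 did not pass the test. Among those with the smallest p, Bhlhe40 (also called DEC1), which competes for E-boxes, went from 637 ± 39.9 to 327 ± 40.9 CPM (mean ± SD, n = 6), a log2 fold change of -0.96 ± 0.10 (adjusted p = 1.54e-06, edgeR). Per1, the third Period gene, went from 61.3 ± 9.66 to 18.3 ± 5.87 CPM (n = 6; log2 fold change -1.74 ± 0.19, adjusted p = 4.05e-06, edgeR). Ciart, a repressor of the ARNTL and CLOCK pair, fell by 1.58 ± 0.16 on the log2 scale. The 3 that rose were Npas2, a partner of ARNTL in place of CLOCK (1.14), Bhlhe41, the paralog of Bhlhe40 (0.92), and Btrc, which marks Period proteins for degradation (0.31). Npas2 was close to the limit of detection, with 3 to 44 reads a library. Its groups overlapped, at 0.0583 to 0.295 CPM in vehicle and 0.266 to 0.483 CPM in β-NMN mice. Neither Csnk1d (0.00) nor Csnk1e (0.24), kinases of the Period proteins, passed the test. Npas2, Bhlhe41 and Btrc were named after their values were seen, as were both kinases.

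Among 11 genes known as clock outputs, 5 fell, 2 rose and 4 did not pass the test, where 51.6% of all genes tested changed. Wee1, a cell cycle kinase gene with E-boxes that is known as a direct clock target, rose from 4.02 to 6.73 CPM in vehicle mice to 13.1 to 24.7 CPM in β-NMN mice, with no overlap. Its log2 fold change was 1.90 ± 0.18 (adjusted p = 9.13e-07, edgeR). Tsc22d3, a glucocorticoid-induced gene, rose by 0.68, while Por (-0.65) and Coq10b (-1.01) fell. Of 5 genes that REV-ERB is known to repress in macrophages, 3 fell, beside 27.9% of all genes tested: Il6 (-1.57 ± 0.15), Mmp9 (-0.90 ± 0.15) and Ccl2 (-0.64 ± 0.16). Tlr4 (-0.23) and Cx3cr1 (0.15, at most 0.614 CPM in any library) did not pass the test, although Tlr4 did without β-NMN mouse 6 (-0.33) and with limma-voom (-0.33, adjusted p = 0.0191). Without β-NMN mouse 3 the value of Tlr4 was -0.13 (adjusted p = 0.485, edgeR). The median log2 fold changes were -0.18 for the regulators, -0.34 for the outputs and -0.64 for the REV-ERB list, beside -0.02 for all genes tested.

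**Figure D2:**
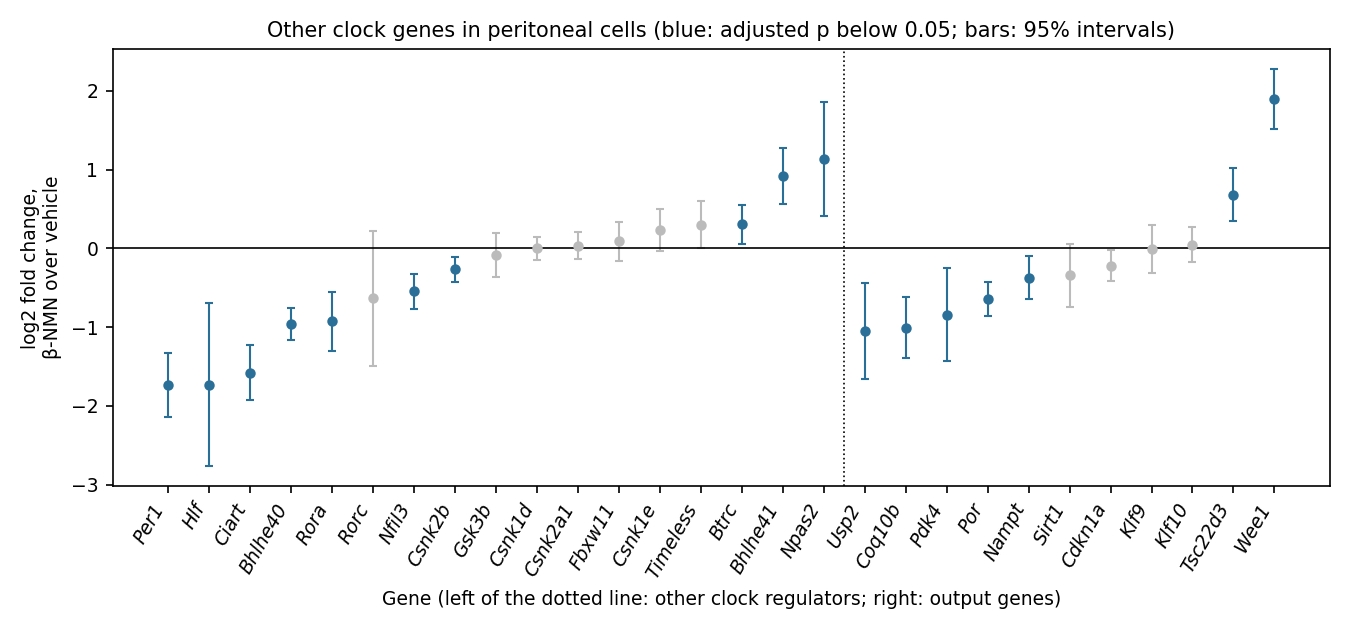
Log2 fold change (β-NMN over vehicle) of other clock regulators and of 11 clock output genes in peritoneal cells, with bars of 95% intervals and blue points for genes with an adjusted p below 0.05. Per1 is lowest among the regulators at -1.74 and Wee1 highest among the outputs at 1.90, with called genes on both sides of 0 in both lists.

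The genes whose profile over the 12 peritoneal libraries was most like that of a clock gene were sought for Arntl and Dbp, by the root mean square (RMS) difference of centred log2 CPM. For Arntl, whose own profile had an RMS of 0.58, these were Rora (0.14), Gtf3c4 (0.15) and A430005L14Rik (0.16). Rora encodes RORα, an activator at the ROR elements that REV-ERB represses, and it fell from 22.2 to 50.7 CPM in vehicle mice to 14.9 to 25.0 CPM in β-NMN mice. Profiles were not centred within treatment, so a fall shared by both genes adds to their likeness. For Dbp (own RMS 0.58) the 3 nearest genes, Tmem8, Frat2 and Ogfod2, were much farther off (0.33 to 0.35). Dbp had only 10 to 65 reads a library there, and the part of counting noise in these distances was not tested. In the 12 CLP libraries, centred within each organ, the gene nearest to Dbp was Per2 (0.38, against an own RMS of 0.78 for Dbp), followed by Hif3a (0.49) and B9d1 (0.50). Those nearest to Arntl were Zfp39 (0.19), Tmod2 (0.20) and Abhd2 (0.20), with an own RMS of 0.36 for Arntl.

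Per length of mRNA, the clock genes stood in a different order in each tissue. In peritoneal cells of vehicle mice Nr1d1, Cry1 and Nr1d2 were highest (medians 12.5, 11.4 and 9.32 RPKM), with ranges that overlapped from each to the next. A gap followed to Clock (2.25 RPKM) and another to Arntl (0.750 RPKM). Cry2, Tef, Per2, Dbp and Per3 lay below, at 0.672 to 0.138 RPKM, and within this run the ranges of neighbours were apart between Tef and Per2 alone. In β-NMN mice Nr1d2 (9.95 RPKM) stood clear above Nr1d1 (4.01 RPKM), and Per2 was last (0.116 RPKM).

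In vehicle hearts Nr1d1 led at 27.8 RPKM, clear of Tef (15.2 RPKM), which overlapped with Nr1d2 (11.1 RPKM), as did Nr1d2 with Cry2 (9.39 RPKM). Dbp (7.32 RPKM), the group of Clock, Per2 and Cry1 (4.59 to 4.03 RPKM), Arntl (3.03 RPKM) and Per3 (1.46 RPKM) followed, each apart from the next. In vehicle lungs Tef led (median 28.0 RPKM), and Nr1d1 (18.7 RPKM), Cry2 (16.1 RPKM) and Nr1d2 (7.92 RPKM) each overlapped with the gene above. The overlap of Nr1d2 with Cry2 rested on vehicle mouse 2 (16.9 RPKM of Nr1d2), since the other 2 vehicle lungs had 6.17 and 7.92 RPKM, under the 14.3 RPKM of the lowest Cry2 value. Nr1d2 was apart from the next gene, Cry1 (4.65 RPKM), but not from Clock, Per3, Per2 and Dbp. These have lower medians, but their highest values (6.54 to 10.8 RPKM) exceeded the lowest of Nr1d2. The 6 genes from Cry1 down to Arntl (2.22 RPKM) overlapped each with the next. Tef, at most 0.985 RPKM in every peritoneal library, was thus among the leading clock genes of both organs.

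**Figure D3:**
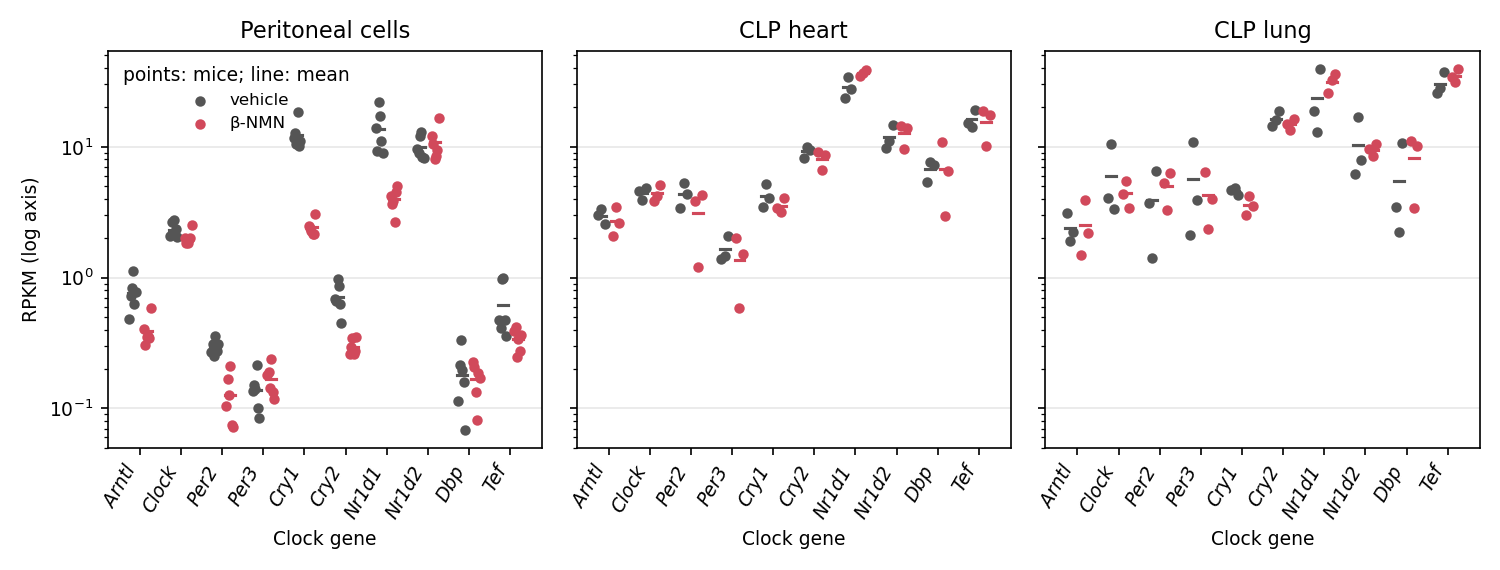
RPKM of the 10 clock genes on a log axis, in peritoneal cells (6 vehicle and 6 β-NMN mice), CLP heart and CLP lung (3 and 3 mice), with a point per mouse and a line at the group mean. In vehicle peritoneal cells the medians spread from 0.138 RPKM for Per3 to 12.5 RPKM for Nr1d1, while in vehicle hearts they spread from 1.46 (Per3) to 27.8 RPKM (Nr1d1).

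In the hearts and lungs of CLP mice no clock gene passed the test of β-NMN against vehicle. For heart edgeR called 0 of the 10 at an adjusted p below 0.05 and 0 at an unadjusted p below 0.05, and 0% of all 16245 genes tested were called (1837 genes, 11.3%, had an unadjusted p below 0.05). For lung it called 0 of the 10 by either measure and 0% of 17008 genes (301 genes, 1.77%, at an unadjusted p below 0.05). DESeq2 and limma-voom also called none of the 10 in either organ. Over all genes the count depended on the tool: DESeq2 called 283 in heart and 9 in lung, and limma-voom 3 and 7. The counts of 0 therefore belong to the edgeR fit and the low-count filter chosen here (the study's methods state no filter) and are not a measure of how many genes differed in these organs. The lowest adjusted p among the clock genes was 0.435 in heart and 0.969 in lung. With 3 mice a group the intervals were wide: they reached from -1.54 to 1.03 in heart and from -1.90 to 2.16 in lung on the log2 scale, as the lowest and highest bound over the 10 genes, and the narrowest was that of Clock in heart (-0.35 to 0.34). A gene that missed the test is therefore not shown to be unchanged, and an exact permutation test of 3 against 3 cannot go below p = 0.1.

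Marker sums of some cell types also differed between the groups of CLP mice without overlap. In heart, ventricular cardiomyocyte markers summed to 28698 to 46875 CPM in vehicle and 49444 to 53752 CPM in β-NMN mice, and neutrophil markers to 18.5 to 33.2 and 12.4 to 13.8 CPM. Endothelial markers in heart summed to 758 to 781 and 796 to 955 CPM. In lung, macrophage markers summed to 1335 to 4260 CPM in vehicle and 4979 to 5459 CPM in β-NMN mice. Ventricular markers in lung summed to 227 to 310 and 64.5 to 224 CPM, and atrial markers to 86.5 to 375 and 24.5 to 85.9 CPM. No single marker was called in either organ, and the part of these sums in the values of Nr1d1, Cry1, Il6, Ccl2 and Nfil3 given here was not tested.

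Nr1d1 was the only clock gene whose groups did not overlap in heart. It had 72.4, 105 and 85.5 CPM in vehicle mice 1 to 3 and 108, 113 and 119 CPM in β-NMN mice 1 to 3. All β-NMN hearts were thus above all vehicle hearts, as they were for 11.6% of the genes tested. The log2 fold change was 0.37 ± 0.16 (adjusted p = 0.435, edgeR), and it was 0.51 without vehicle mouse 2. In lung Nr1d1 had 57.5, 39.7 and 120 CPM in vehicle mice and 79.6, 99.7 and 111 CPM in β-NMN mice. The highest value was in a vehicle lung, and the log2 fold change of 0.42 ± 0.42 became 0.13 without vehicle mouse 2 and 1.01 without vehicle mouse 3.

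Cry1 was the only clock gene without overlap in lung, with 15.5, 16.2 and 14.2 CPM in vehicle mice and 10.1, 14.1 and 11.9 CPM in β-NMN mice. All β-NMN lungs were lower, by a narrow margin, as for 3.75% of the genes tested. The log2 fold change was -0.35 ± 0.24 (adjusted p = 0.969, edgeR). In heart Cry1 had 11.6, 17.2 and 13.4 CPM in vehicle mice and 11.3, 10.6 and 13.6 CPM in β-NMN mice. Those values overlapped, with a log2 fold change of -0.25 ± 0.19 that became -0.08 without vehicle mouse 2.

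The other 8 clock genes overlapped between the groups in both organs. Their log2 fold changes ran from -0.49 (Per2) to 0.11 (Nr1d2) in heart and from -0.44 (Clock) to 0.57 (Dbp) in lung. The value of Per2 in heart became -0.10 without β-NMN mouse 2, and that of Dbp in lung became 0.21 without vehicle mouse 2 and 1.52 without vehicle mouse 3. In lung several signs rested on vehicle mouse 2: without it Clock went from -0.44 to 0.24, Per3 from -0.40 to 0.49, Nr1d2 from -0.11 to 0.44, Per2 from 0.34 to -0.041 and Arntl from 0.061 to -0.081. No difference of the β-NMN effect between heart and lung was called among the 10 (0% of 18318 genes tested were called, and 797, 4.35%, had an unadjusted p below 0.05). The adjusted p of that test was 0.960 to 1.00 over the clock genes (edgeR, organ by treatment term). In data simulated with the spread of these libraries, that test called 1% of planted log2 differences of 1 and 3% of those of 2. The absence of a call therefore does not show that the effect was alike in both organs.

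**Figure D4:**
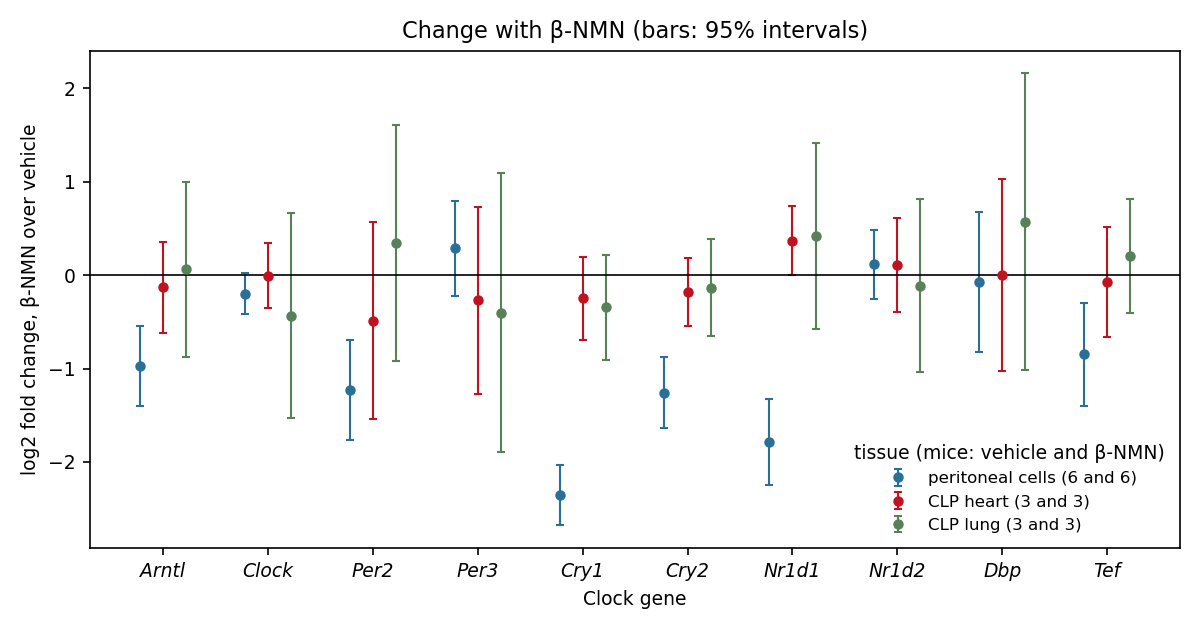
Log2 fold change (β-NMN over vehicle) of the 10 clock genes in peritoneal cells (blue, 6 and 6 mice), CLP heart (red) and CLP lung (green, 3 and 3 mice each), with bars of 95% intervals. In peritoneal cells Cry1 (-2.36), Nr1d1 (-1.78), Cry2, Per2, Arntl and Tef lie below 0 with their bars, while in the organs every bar holds 0, that of Nr1d1 in heart only just (-0.002 to 0.74).

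Within a group the mice differed widely in clock gene levels. In heart, β-NMN mouse 2 had the lowest level of 7 of the 10 clock genes. Its heart held 8.78 CPM of Dbp against 16.2 to 32.8 CPM in the other 5 hearts, 7.08 CPM of Per2 against 19.9 to 31.2 CPM, and 5.60 CPM of Per3 against 13.5 to 19.9 CPM. At the same time it had the highest Arntl, 26.1 CPM against 15.8 to 25.2 CPM. Its lung likewise had the highest Arntl (29.3 CPM against 11.2 to 23.4 CPM) and low Dbp (10.1 CPM). The opposite case was β-NMN mouse 1, with the lowest Arntl (15.8 CPM in heart, 11.2 CPM in lung) and the highest Dbp of all 6 mice in both organs (32.8 and 32.9 CPM).

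Arntl and Dbp, the genes that peak at opposite times in a running clock, thus set the mice in an order. From low to high log2 ratio of Dbp to Arntl in heart the order was β-NMN mouse 2 (-1.57), vehicle 1 (-0.49), vehicle 2 (-0.14), β-NMN 3 (0.01), vehicle 3 (0.19) and β-NMN 1 (1.06). In lung it ran from -1.53 for β-NMN mouse 2 over -1.16, -1.11, 0.90 and 0.94 to 1.55 for β-NMN mouse 1. All 6 mice held the same place in both organs, and the lowest and the highest place both belonged to β-NMN mice. This is a description over 6 mice, and both organs of a mouse share its hour of sampling, its treatment and its illness.

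**Figure D5:**
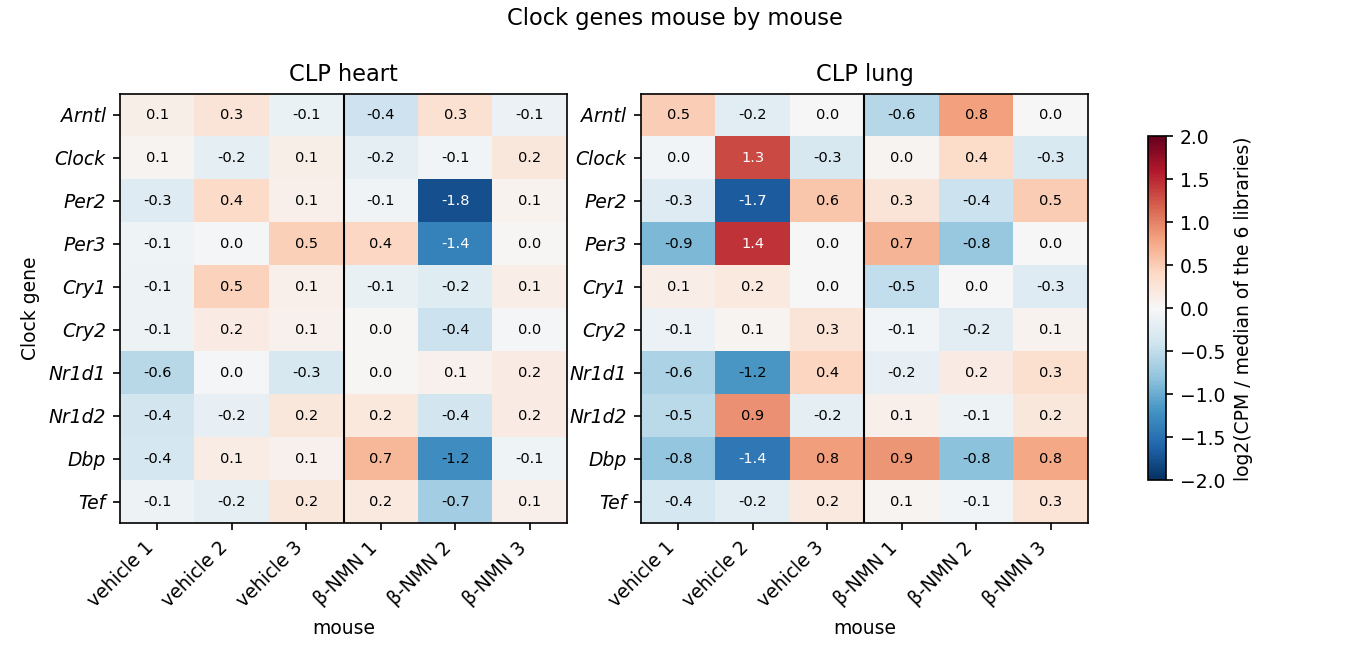
Log2 of CPM over the median of the 6 libraries of an organ, for the 10 clock genes (rows) in heart and lung of the 6 CLP mice (columns), with vehicle mice left and β-NMN mice right of the black line. Blue cells mark the low Per2, Per3 and Dbp in the heart of β-NMN mouse 2, and the lung of vehicle mouse 2 shows high Clock (144 CPM) and Per3 (104 CPM) beside low Per2, Nr1d1 and Dbp.

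The lung of vehicle mouse 2 broke the pattern of the other lungs. Clock (144 CPM against 46.3 to 74.9 CPM), Per3 (104 CPM against 20.5 to 61.3 CPM) and Nr1d2 (91.6 CPM against 33.4 to 57.1 CPM) were highest in this library. Per2 (8.24 CPM against 19.3 to 38.3 CPM), Nr1d1 (39.7 CPM against 57.5 to 120 CPM) and Dbp (6.65 CPM against 10.1 to 32.9 CPM) were lowest in it. Beside the low macrophage and endothelial sums given above, this lung had the highest sums of atrial markers (375 CPM against at most 93.0 CPM), ventricular markers (310 CPM against at most 231 CPM), T cell markers (21.1 CPM against at most 9.88 CPM) and fibroblast markers (1570 CPM against at most 1390 CPM). The part of these sums in the clock gene values was not tested.

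The organs of the same 6 mice differed in the level of 5 of the 10 clock genes (edgeR organ term, 12 libraries, no mouse term). Of 18318 genes tested 65% differed, 29.1% higher and 35.9% lower in heart. On this scale the median gene was lower in heart by a log2 difference of -0.14, and the values below are not shifted by it. Higher in heart were Nr1d2 (log2 difference 1.00 ± 0.22, adjusted p = 0.00130, edgeR), Nr1d1 (0.91 ± 0.24), Arntl (0.87 ± 0.24) and Cry1 (0.60 ± 0.15), each in 6 of 6 mice. With a common scaling of both organs, Nr1d2 had 67.3 to 99.6 CPM in hearts and 27.1 to 67.2 CPM in lungs, ranges that barely parted, and Nr1d1 had 92.7 to 150 and 29.1 to 97.4 CPM, ranges that overlapped. These 4 calls held when any mouse was left out. The fit took both organs of a mouse as independent. With a mouse term the same 5 clock genes were called, and Tef, Dbp and Clock had adjusted p of 0.0502, 0.0545 and 0.0687 (edgeR).

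Per3 went the other way, with 7.18 to 25.1 CPM in hearts and 16.6 to 76.4 CPM in lungs, and was higher in lung in 5 of 6 mice (2.01-fold, SE 0.38 on the log2 scale, adjusted p = 0.0348, edgeR). This call was lost without vehicle mouse 2 (log2 difference heart minus lung -0.54, adjusted p = 0.167, edgeR), and also without β-NMN mouse 1 or β-NMN mouse 3. Clock did not pass the test over all 6 mice (0.49 ± 0.24, adjusted p = 0.0908, edgeR) but was called higher in heart without vehicle mouse 2 (0.91, adjusted p = 7.23e-05, edgeR). Tef was higher in lung in 6 of 6 mice, with a log2 difference of -0.37 ± 0.18 that did not pass the test (adjusted p = 0.0926, edgeR). Per2 (0.40 ± 0.39), Dbp (0.68 ± 0.43) and Cry2 (-0.18 ± 0.13) did not pass it either, and without vehicle mouse 2 they came to 0.20, 0.54 and -0.11.

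The other lists gave no call in the organs by edgeR, with 21 regulators, 11 outputs and 5 REV-ERB targets tested in heart and 20, 11 and 5 in lung. At an unadjusted p below 0.05 there were 1, 0 and 3 in heart and 1, 0 and 0 in lung, beside 11.3% and 1.77% of all genes tested. Median log2 fold changes were -0.04, -0.19 and -1.39 in heart and -0.20, -0.41 and -0.48 in lung, beside -0.01 and 0.00 over all genes. Without vehicle mouse 2 they were -0.075, -0.21 and -0.93 in heart and 0.007, 0.008 and -0.50 in lung, beside -0.002 and 0.024 over all genes. The lower medians of the regulators and outputs in lung thus rested on that mouse. The REV-ERB list has only 5 genes, so that its median is the value of 1 gene: Mmp9 in heart (-1.39, and -0.93 without vehicle mouse 2) and Cx3cr1 in lung (-0.48, but 0.96 without it). The smallest p among the regulators belonged to Bhlhe40 in heart, with 69.8 to 113 CPM in vehicle and 32.8 to 57.0 CPM in β-NMN mice, and to Nfil3, a repressor at D-boxes, in lung, with 29.5 to 44.5 CPM in vehicle and 19.7 to 20.6 CPM in β-NMN mice. Neither pair of ranges overlapped, and neither gene passed the test (adjusted p = 0.435 and 0.969, edgeR). In heart Il6 had 1.03, 7.62 and 4.07 CPM in vehicle mice and at most 0.0924 CPM in β-NMN mice, and Ccl2 had 9.74 to 26.3 CPM and 3.91 to 5.37 CPM. Mmp9 had 1.92 to 7.17 and 1.42 to 2.18 CPM. The other 2 of the REV-ERB list lay above 0 in heart, Cx3cr1 with 0.941 to 3.52 CPM in vehicle and 2.79 to 8.50 CPM in β-NMN mice (log2 fold change 1.32 ± 0.56) and Tlr4 with 0.16 ± 0.23 (-0.040 without vehicle mouse 2), and neither passed the test. Il6 and Ccl2 had an adjusted p of 0.435 with edgeR, both were called with DESeq2, and Il6 was also called without the filter on low counts.

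Exons of 5 clock genes share bases with a gene on the opposite strand: Dbp with Sphk2 (18% of its exon bases), Nr1d1 with Thra (8.55%), Cry2 with D930015M05Rik (4.67%), Tef with Gm17597 (2.45%) and Arntl with Gm45355 (0.439%). No source used here states whether reads were counted by strand, and reads over those bases could therefore come from either gene.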

How the data were processed

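Poly(A)-selected RNA was sequenced from 12 peritoneal cell cultures and from the hearts and lungs of 6 CLP mice. The authors deposited raw read counts per gene symbol, 1 table per experiment, made from reads aligned to mm10 with STAR and counted with featureCounts 2.0.0. The submitters' processing notes name STAR 2.7.3a and the methods an older release. The annotation and strand setting are not given in the sources used here. The labels name thioglycollate as the source of the CLP organs and number a pair of β-NMN hearts 3. Tissue and model were taken from the titles, and the heart of mouse B17 was numbered 2 like its lung.

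A separate edgeR 4.0.16 model (R 4.3.3) was fitted to each tissue, with TMM and the quasi-likelihood F-test named in the study's methods. Chosen here were filterByExpr (minimum count 10, total 15), the legacy form of the test and Benjamini-Hochberg adjustment over all genes tested, with calls at an adjusted p below 0.05. Standard errors were derived from the F statistic, and the 95% intervals used the t quantile at the test's denominator degrees of freedom. The organ and organ by treatment terms were fitted over the 12 CLP libraries, without a mouse term. Single genes were also tested by exact two-sided permutation of mean log2 CPM (prior count 2). Exon lengths and positions came from GENCODE M21 (GRCm38). Scripts were tested on simulated data. Of genes with a planted log2 fold change of 2, edgeR called 89% in peritoneal cells, 77% in heart and 0% in lung.

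Heart and lung samples share a mouse by their labels, and each deviated most like the other organ of its own mouse (correlations 0.06 to 0.17). In peritoneal cells replicate numbers did not pair the samples (-0.17 to 0.13). No 2 libraries agreed within counting noise. Depth was 8915366 to 112456050 counted reads. The p-values of β-NMN against vehicle measure the spread between these mice, whereas the organ terms took both organs of a mouse as independent.

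The clock genes and the other lists were chosen with earlier results of these data known. Named were all 10 clock genes, the 5 REV-ERB targets, and the 3 genes nearest to Arntl and to Dbp. Chosen as well were the 4 genes with the smallest p of the regulator list and of the output list in each tissue. Of those chosen in the organs, values are given only for Bhlhe40 in heart, Nfil3 in lung and, as a range, Klf10 in lung. A gene of the regulator list is counted but not reported here by name or in the plot. Alternatives were DESeq2 1.42.0 and its size factors, a replicate block, no filter, edgeR's newer and robust quasi-likelihood forms, limma-voom with quality weights (limma 3.58.1) and leaving out each mouse.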

Additional observations from a re-analysis of the deposited data

Results flagged for a closer look

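In 20 groups of 6 peritoneal libraries, 1 for each clock gene and treatment, the extreme sample was compared with its neighbours by Dixon's ratio, taken on log2 CPM, whose limit chance alone exceeds in about 1 in 20 groups. Cry1 in vehicle mouse 4 (61.7 CPM against 33.7 to 42.3 CPM in the other 5) had a ratio of 0.626, just above the limit. Without that mouse the log2 fold change of Cry1 was -2.17. Clock in β-NMN mouse 6 (34.5 CPM against 25.1 to 27.7 CPM) had a ratio of 0.682, also above it. Taken on CPM, Cry1 and Clock stayed above the limit in these mice (0.695 and 0.716), and Arntl in β-NMN mouse 6 (4.42 CPM against 2.30 to 3.03 CPM) came above it too (0.656, and 0.579 on log2 CPM).

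Nr1d1 moved in opposite directions in 2 tissues: every β-NMN heart was above every vehicle heart (log2 fold change 0.37), and every β-NMN peritoneal culture was below every vehicle culture (-1.78). The difference between the tissues was not tested, since they come from separate experiments with separate mice, and the change in heart did not pass its own test (adjusted p = 0.435, edgeR).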

How the results depend on the processing

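Called clock genes did not change in number under most alternatives. In peritoneal cells 6 were called, and 8 with limma-voom, where Clock (-0.27, adjusted p = 0.0114) and Per3 (0.50, adjusted p = 0.0467) joined; without single mice the count was 6 to 7. The count was 0 in heart, in lung and for the organ by treatment term under every alternative run. Between organs it was 5, and 4 to 5 without single mice. Over all genes DESeq2 called 283 in heart, 9 in lung and 14 for the organ by treatment term where edgeR called 0. In heart 3 genes were called without the filter and 3 with limma-voom, and in lung 7 with limma-voom. Leaving out mice gave 0 to 5 calls over all genes in heart, with 5 when vehicle mouse 2 was left out, 0 in lung and 0 for the organ by treatment term. Between organs such runs gave 10751 to 14226 calls, and in peritoneal cells 7132 to 8049.

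Replicate numbers did not pair vehicle with β-NMN mice, although in heart each sample deviated most like its own number (0.07 to 0.24; lung -0.52 to 0.30). With the replicate block, log2 fold changes changed sign for Dbp in heart (-0.17) and for Arntl (-0.023), Nr1d2 (0.027) and Mmp9 (0.23) in lung. With the mouse as replicate block Per3 changed sign in the organ by treatment term (-0.26). No call of a clock gene changed with the block.

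All other changes of sign were of values that did not pass the test, and the cause was not tested. In peritoneal cells they were Dbp with the newer fit (0.063) and limma-voom (0.17) and Cx3cr1 with limma-voom (-0.071). In heart Clock came to 0.000 with DESeq2 size factors, 0.001 with DESeq2 and 0.003 without the filter, and Dbp to -0.073 with limma-voom. In lung, limma-voom gave -0.26 for Arntl, 0.55 for Per3, 0.56 for Nr1d2, 0.50 for Cx3cr1 and 0.015 for Mmp9. In the organ by treatment term Cry2 came to 0.040 with DESeq2 size factors and 0.039 with DESeq2, and Nr1d1 to 0.040 with each.

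Without single mice, signs changed within these ranges. In peritoneal cells these were Dbp -0.26 to 0.22, Cx3cr1 -0.12 to 0.45 and Nr1d2 -0.012 to 0.23. In heart they were Clock -0.13 to 0.084, Nr1d2 -0.014 to 0.29, Dbp -0.51 to 0.37, Tlr4 -0.040 to 0.32, Tef -0.23 to 0.15, Arntl -0.35 to 0.029 and Per3 -0.64 to 0.094. In lung they were Tlr4 -0.31 to 0.084, Arntl -0.39 to 0.33, Clock -0.69 to 0.24, Per2 -0.041 to 0.94, Per3 -0.81 to 0.49, Nr1d2 -0.36 to 0.44, Klf10 -1.04 to 0.008, Cx3cr1 -0.96 to 0.96 and Mmp9 -0.50 to 0.83. In the organ by treatment term they were Cry1 -0.076 to 0.28, Arntl -0.43 to 0.060, Clock -0.31 to 0.69, Per3 -0.82 to 0.43, Cry2 -0.19 to 0.047, Nr1d1 -0.67 to 0.42 and Nr1d2 -0.35 to 0.47. The lung libraries were the shallowest and varied most, and with 0 of 17008 genes called there, a clock gene that missed the test is not shown to be unchanged.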

Other observations

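In peritoneal cells the log2 ratio of Dbp to Arntl was -4.84 to -2.65 in vehicle mice and -3.45 to -1.88 in β-NMN mice, with overlap. Both groups lay below the lowest heart (-1.57) and the lowest lung (-1.53). The ratio rests on 10 to 65 Dbp reads a library and does not depend on the library scaling.

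Of the casein kinase 2 subunits, which phosphorylate clock proteins, Csnk2b fell in peritoneal cells by 0.27 on the log2 scale (adjusted p = 0.00894, edgeR), and Csnk2a1 had a log2 fold change of 0.03 (adjusted p = 0.751, edgeR). Nampt, the clock output gene of the enzyme that makes NMN from nicotinamide, fell from 1343 ± 279 to 1038 ± 91.4 CPM (mean ± SD, n = 6; log2 fold change -0.37, adjusted p = 0.0246, edgeR). Sirt1, a NAD+-dependent deacetylase that acts on the clock, had 34.7 to 47.2 CPM in vehicle mice and 23.7 to 55.0 CPM in β-NMN mice and did not pass the test (adjusted p = 0.144, edgeR). These 4 genes were named after their values were seen.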
